A study of Mus musculus with 41 samples.

Results

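Lysosomes break down the lipids, glycans, proteins and nucleic acids that a cell takes in or discards, and 40 genes for lysosomal hydrolases, their activators and lysosomal membrane proteins were followed here in mouse microglia. The genes were taken by symbol from a list that was drawn up with earlier results of these data known, though no measured value enters the rule itself. All 40 were among the 24015 genes of the deposited table. RNA was measured in microglia, the macrophages that reside in the brain, sorted from the cerebellum as cells carrying CD11b and Tmem119 on their surface. Wild-type (WT) mice of the strain labelled balb/c and Niemann-Pick type C (NPC) mice of the strain BALB/cNctr-Npc1m1N/J were sampled at 1, 3, 6 and 9 weeks of age without treatment, with 4 libraries per group and 3 for NPC at 9 weeks. At 9 weeks a further 5 NPC mice had received PLX5622, an inhibitor of the receptor kinase Csf1r on which microglia depend, and 5 NPC mice labelled Control served as their comparison. The NPC strain carries its Npc1 mutation in every cell, so the microglia and all cells around them lack working Npc1. The labels name no littermates and state neither the dose nor the length of the PLX5622 treatment. The series' text counts mice as the replicates.

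Npc1 is a membrane protein that carries cholesterol out of the lysosome, and its loss leaves cholesterol and sphingolipids stored there. The soluble hydrolases work at acid pH, each removes a particular sugar, sulfate, fatty acid, phosphate or peptide, and inherited loss of most of them causes a storage disease of its own. Many of their genes are targets of the transcription factors TFEB and TFE3, which bind a palindrome known as the CLEAR element, built around an E-box. In microglia, the load of lysosomes rises when the cells take up myelin and dying neurons, and Cd68, a lysosomal membrane glycoprotein of macrophages, is a common tissue marker of that state.

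Since many lysosomal genes are known targets of these factors, the promoters of the members were searched for this element. RefSeq promoter sequences of build GRCm38.p6, from 250 bases before to 50 bases after each start, matched 35 of the 40 genes. The 8-base core TCACGTGA was found in 3 of 35 promoters (8.57%), against 304 of 27025 genes with a promoter sequence (1.12%). The 6-base E-box CACGTG, which every core contains, was found in 9 of 35 (25.7%), against 2187 of 27025 (8.09%). Both motifs are palindromes, so a match holds for both strands. The windows printed here are 30 bases long and lie before the start, on the strand of the gene, with the motif in capitals. The first 4 hold the core. Of the members with the core, Gla and Mcoln1 were higher in NPC microglia at 9 weeks and Cln3 was not. The last 3 windows hold the E-box alone, in promoters of members that were higher in NPC microglia at 9 weeks.
Gla, chrX:134601215-134601244, minus strand: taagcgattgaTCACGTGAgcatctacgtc
Gla, chrX:134601182-134601211, minus strand: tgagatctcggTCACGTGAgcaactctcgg
Mcoln1, chr8:3500462-3500491, plus strand: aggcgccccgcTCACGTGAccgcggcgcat
Cln3, chr7:126583340-126583369, minus strand: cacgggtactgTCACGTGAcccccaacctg
Glb1, chr9:114401018-114401047, plus strand: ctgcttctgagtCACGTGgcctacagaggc
Naglu, chr11:101070009-101070038, plus strand: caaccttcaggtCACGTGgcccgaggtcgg
Gaa, chr11:119267811-119267840, plus strand: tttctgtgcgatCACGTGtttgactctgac
The Gla promoter, which held 2 copies of the core, belongs to the member with the second-largest rise in NPC microglia described below. Among the 35 genes, 5 of 9 with an E-box (55.6%) and 14 of 26 without (53.8%) were higher in NPC at 9 weeks. Cln3 and Mcoln1 held a further E-box outside the core. The other 3 members with an E-box were Lgmn, Sgsh and Arsa, none of which was higher at 9 weeks. A match describes letters in a window and says nothing of whether a factor was bound.

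Depth was 23.16 M to 40.51 M reads per library, where M stands for 1e+06, and the median over all 41 was 30.48 M. Npc1 transcript, the mutated gene, had 5808 ± 919.9 normalized counts in WT and 629 ± 181 in NPC at 9 weeks (mean ± SD, n = 4 and 3), and its NPC libraries lay below its WT libraries at every age. All 8 microglia markers were detected in every group, Csf1r being the most abundant, with 4 of 8 lower and 0 higher in NPC at 9 weeks. Their summed level was 1580000 to 1840000 in WT and 1010000 to 1280000 in NPC at that age. Of 10 myelin markers 1 was higher and 0 lower at 9 weeks, with a median log2 change of 0.09 for the list. Their sum was 8420 to 17600 in NPC, led by Mbp, and 6730 to 7110 in WT, led by Cnp. At 6 weeks it was 6830 to 19800 and 5510 to 10100, with NPC 6w replicate B highest. Of 7 tested markers of border-associated macrophages 3 were higher and 0 lower at 3 and at 9 weeks. At 6 weeks 2 were higher and 2 lower, with a median log2 change of -1.0 for the list. The sum of the list was 1160 to 1500 in NPC and 358 to 688 in WT at 3 weeks, and 1030 to 1220 and 430 to 585 at 6 weeks. It was 844 to 1490 and 281 to 581 at 9 weeks, with Mrc1 the leading gene. Of 10 astrocyte markers 2 were higher and 0 lower at 9 weeks, with sums of 16100 to 19100 in NPC and 15200 to 18800 in WT. At 3 and at 6 weeks 2 were higher and 1 lower. The sums were 16100 to 20700 in NPC and 18200 to 26300 in WT at 3 weeks, and 18300 to 22600 and 21200 to 23300 at 6 weeks. Gfap, an astrocyte marker that rises in reactive astrocytes, had 171 to 386 in NPC and 34.1 to 53.7 in WT at 3 weeks, 193 to 2560 and 34.8 to 107 at 6 weeks, and 801 to 2280 and 62.8 to 80.3 at 9 weeks. The median log2 change of the astrocyte list was 1.66 at 6 weeks and 1.13 at 9 weeks. At 9 weeks the sum of neuron markers was 221 to 291 in NPC and 146 to 286 in WT, and that of endothelial markers was 696 to 1060 and 974 to 1270. At 3 weeks the endothelial sum was 408 to 1100 and 1190 to 1500, and at 6 weeks 915 to 1040 and 1380 to 1500, without overlap at either age. The 9-week sum of monocyte and neutrophil markers was 334 to 624 and 276 to 1120, and that of lymphocyte markers was 15.9 to 36.7 and 15.1 to 42.9. Of 7 erythrocyte markers 6 were at 0 in every group. From 3 weeks on, the summed microglia markers, the summed border-associated macrophage markers and Gfap moved with the genotype. So did the endothelial sum at 3 and 6 weeks and the myelin sum at 9 weeks. The part of these levels in the results below was not tested. In bulk RNA, fewer cells of a type and less RNA per cell cannot be told apart.

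Across the 40 genes, NPC microglia had higher levels of 22, 21 and 21 genes at 3, 6 and 9 weeks, and lower levels of 2, 2 and 3. A gene is called higher or lower here where limma's moderated test on log2(normalized count + 1), adjusted by the Benjamini-Hochberg method over all genes tested, gave an adjusted p under 0.05. All 40 genes passed the filter on low values in every comparison. At 1 week 1 gene was higher and 0 lower, where 0.876% and 0.577% of all tested genes were higher and lower. The same shares of all tested genes were 14.3% and 12.6% at 3 weeks, where 22 and 2 members passed. They were 8.76% and 6.5% at 6 weeks, beside 21 and 2 members, and 11.2% and 7.77% at 9 weeks, beside 21 and 3. The median log2 change of the 40 genes was 0.12, 0.40, 0.35 and 0.38 at 1, 3, 6 and 9 weeks, where that of all tested genes was 0.00, -0.04, -0.02 and 0.03. Given how the list was drawn up, these counts describe it and are no independent evidence of direction.

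The calls were spread over the ages in a few patterns. At 3, 6 and 9 weeks alike, 15 genes were higher (Acp5, Cd68, Dnase2a, Galc, Gla, Glb1, Gm2a, Grn, Gusb, Manba, Naglu, Neu1, Plbd2, Scpep1 and Tpp1), and Pla2g15 was lower. Asah1, Cln3, Ctns, Idua and Ppt1 passed at 3 weeks and at no other age. Gaa, Galns, Man2b1, Mcoln1 and Psap passed at 6 and 9 weeks but not at 3. Hexa passed at 3 and 6 weeks and Slc17a5 at 3 and 9 weeks. No gene was higher at 1 age and lower at another, and 9 genes passed at no age (Acp2, Aga, Arsa, Fuca1, Hgsnat, Ids, Mfsd8, Sgsh and Smpd1). A call at 1 age and not at another does not show that the ages differ, which was tested separately below. The counts at 3 and 6 weeks depended on which libraries entered the fit. In a fit of the 8 libraries of 3 weeks alone 11 members were higher and 0 lower. That fit called 769 of 12396 tested genes, against 3777 of 14046 in the main fit. With NPC 6w replicates B and C both left out, 9 rather than 21 members were higher at 6 weeks. The calls of Gla, Cd68, Gusb, Naglu, Tpp1, Psap, Gaa, Galns, Hexa, Manba, Plbd2 and Mcoln1 were lost. Of all tested genes, 872 rather than 2143 were called at 6 weeks without these libraries. The summed myelin markers of these libraries were 19800 and 17200, against 9200 and 6830 in NPC 6w replicates A and D, and their part in the 6-week calls was not tested. NPC 3w replicate C, which is named at several genes below, had the fewest genes with at least 3 reads of all 41 libraries, 12003, the next lowest having 12801. Without it 2057 rather than 3777 of all tested genes were called at 3 weeks, and 21 rather than 24 members. With libraries rescaled to the same total, 81.0% rather than 91.7% of the called genes were higher at 3 weeks, and 76.0% rather than 87.5% at 9 weeks. That rescaling moved the median of all genes at 3 weeks by -0.13, and the members' median lay 0.43 above it, against 0.44 in the main scaling.

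**Figure D1:**
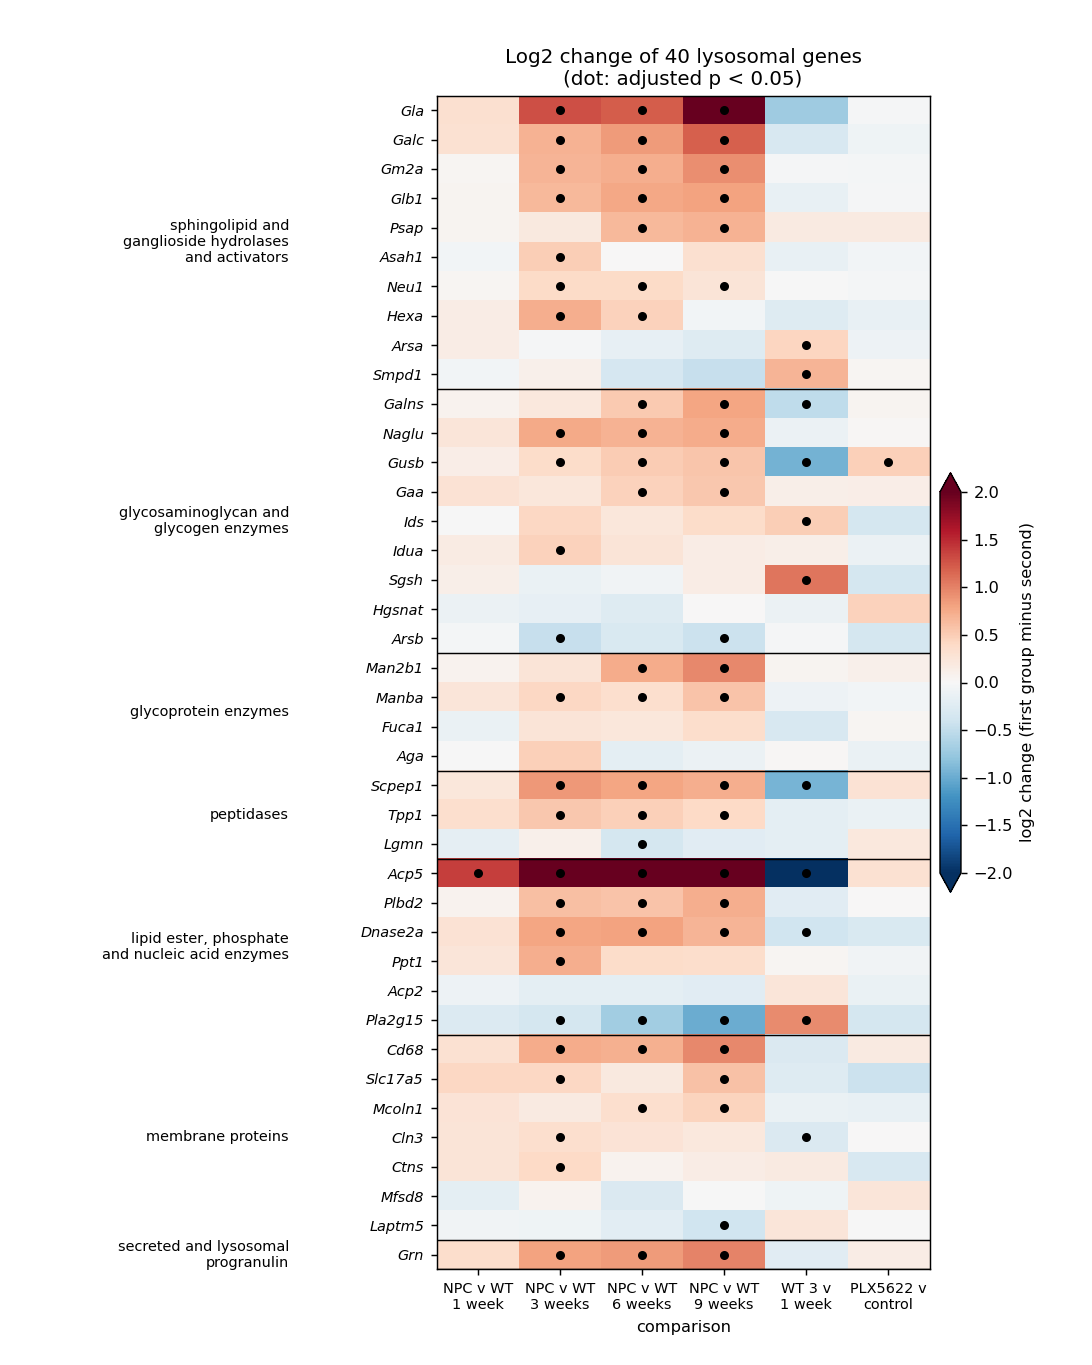
Heat map of the log2 change of each of the 40 genes (rows, grouped by role) in 6 comparisons (columns); colours beyond 2 in either direction are shown at 2, and a dot marks limma adjusted p under 0.05. Dots on red fill the 3, 6 and 9 week columns for 22, 21 and 21 genes, the row of Pla2g15 is blue at all 4 ages, and the PLX5622 column has a single dot.

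Sphingolipid and ganglioside hydrolases and their activators formed the largest role group and the one with the most calls. Of 10 genes, 7, 7 and 6 were higher at 3, 6 and 9 weeks and 0 were lower. Some smaller groups had a larger share called. At 3 weeks 4 of 6 enzymes of lipid esters, phosphates and nucleic acids were higher and 1 lower. Gla, the alpha-galactosidase that trims globotriaosylceramide, had 296, 361, 256 and 222 normalized counts in WT replicates A to D at 9 weeks and 1355, 1109.5 and 917 in NPC replicates A to C. Every NPC library lay above every WT library (log2 change 1.99 ± 0.32 (SE), 3.97-fold, 95% interval 2.53 to 6.23, limma adjusted p = 3.03e-05). At 6 weeks Gla had 377, 464, 316 and 439.7 in WT and 646, 1349, 1483 and 535 in NPC (log2 change 1.21 ± 0.29 (SE), 2.31-fold, 95% interval 1.52 to 3.50, limma adjusted p = 0.00482). At 3 weeks the values were 244, 264, 271 and 296 in WT and 478, 526, 1443 and 516 in NPC (log2 change 1.29 ± 0.29 (SE), 2.45-fold, 95% interval 1.61 to 3.72, limma adjusted p = 0.00226). NPC 3w replicate C and NPC 6w replicates B and C had 1443, 1349 and 1483 counts, above the other 5 NPC libraries of those ages, of which NPC 6w replicate A was highest. With NPC 6w replicates B and C both left out, the change of Gla at 6 weeks was 0.57 and not called (limma adjusted p = 0.353), and in the fit of 3-week libraries alone its adjusted p was 0.0585 (limma).

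Galc, the enzyme that degrades the myelin lipid galactosylceramide, had 883, 1029, 1301 and 1066 in WT and 2480.5, 2524 and 2275 in NPC at 9 weeks (log2 change 1.19 ± 0.17 (SE), 2.29-fold, 95% interval 1.81 to 2.89, limma adjusted p = 3.61e-06). Its NPC values at 3 weeks were 1890.5, 1645, 1866 and 2091, against 1074, 1285, 1221 and 1052 in WT. At 6 weeks they were 2380.4, 2281, 2663 and 2044 against 1205, 1132, 1312 and 1534 (log2 change 0.86 ± 0.15 (SE), 1.81-fold, 95% interval 1.46 to 2.25, limma adjusted p = 1.62e-04). The groups did not overlap at any of these 3 ages, while at 1 week they did, with 1476, 1669, 1804 and 2253 in NPC and 1012, 1509, 1704 and 1664 in WT. The myelin marker sum given above was also higher in NPC at 9 weeks, and its part in the change of Galc was not tested.

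Gm2a, the activator that lifts GM2 ganglioside out of the membrane for cleavage, had 9784, 9809, 9574 and 9112 in WT and 20632, 17850.3 and 16688 in NPC at 9 weeks, a log2 change of 0.94 (limma adjusted p = 7.18e-06). Glb1, the beta-galactosidase of GM1 ganglioside, had 3989, 3443, 3723 and 3395 in WT and 6594, 6916 and 5563 in NPC, a log2 change of 0.80 (limma adjusted p = 3.03e-05). Both were already higher at 3 weeks, by 0.68 and 0.65 on the log2 scale, while at 1 week their libraries overlapped. Hexa, the alpha subunit of the hexosaminidase that Gm2a serves, passed at 3 and 6 weeks but not at 9. It was higher at 3 weeks (log2 change 0.73, limma adjusted p = 8.35e-04) and at 6 weeks (0.46, 0.0354), but at 9 weeks had 38465, 47743 and 37493 in NPC and 45486, 40682, 39747 and 44556 in WT, with the groups overlapping. The 6-week call of Hexa was lost when NPC 6w B, NPC 6w C, WT 6w C or WT 6w D was left out (limma adjusted p from 0.0586 to 0.164).

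Psap, the precursor of the saposins that assist these enzymes, was higher at 6 weeks by 0.64 and at 9 weeks by 0.69 on the log2 scale. At 3 weeks it had 118279.7 to 138281 counts in NPC and 104649.7 to 127302 in WT, with overlap, and did not pass. Neu1, the lysosomal sialidase, was higher by 0.38, 0.39 and 0.26 at 3, 6 and 9 weeks, and its 9-week call was lost when NPC 9w A, NPC 9w B, NPC 9w C, WT 9w B, WT 9w C or WT 9w D was left out (limma adjusted p from 0.0635 to 0.134). Asah1, acid ceramidase, was higher by 0.49 at 3 weeks, a call lost when NPC 3w C, WT 3w A, WT 3w B, WT 3w C or WT 3w D was left out (limma adjusted p from 0.0526 to 0.252). The remaining members of the group did not pass at any age. Smpd1, the acid sphingomyelinase, had -0.47 (95% interval -0.83 to -0.10) and Arsa, the sulfatase of sulfatide, had -0.26 (95% interval -0.51 to -0.02) as log2 changes at 9 weeks, with limma adjusted p = 0.0666 and 0.129. For both genes every NPC library lay below every WT library. Smpd1 passed as lower without NPC 3w replicate C, a library of another age that enters the shared spread (limma adjusted p = 0.0102), and in the fit of 9-week libraries alone (0.00242, limma).

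Among 9 enzymes that degrade glycosaminoglycans and glycogen, 3, 4 and 4 were higher at 3, 6 and 9 weeks, and 1, 0 and 1 lower. Naglu, the N-acetylglucosaminidase of heparan sulfate, was higher at all 3 ages by 0.75, 0.70 and 0.74 on the log2 scale. Gusb, beta-glucuronidase, was higher by 0.37, 0.51 and 0.56. Galns, a sulfatase of keratan sulfate, had 1429, 1450.3, 1234 and 1165 in WT and 2616, 2289 and 1953 in NPC at 9 weeks, a log2 change of 0.79 (limma adjusted p = 2.49e-04) without overlap of the groups. At 6 weeks Galns was higher by 0.53, a call lost when NPC 6w replicate C was left out (limma adjusted p = 0.0525). Gaa, the acid glucosidase of glycogen, was higher by 0.46 and 0.54 at 6 and 9 weeks, and Idua, the iduronidase, by 0.47 at 3 weeks.

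Arsb, the sulfatase of dermatan sulfate, was the member of this group that was lower. Its levels were 66719.9, 65928, 40710.4 and 66231 in NPC and 82748, 80047, 92784 and 70648 in WT at 3 weeks (log2 change -0.47 ± 0.14 (SE), 0.723 times the WT level, 95% interval 0.595 to 0.879, limma adjusted p = 0.0144), so the groups did not overlap but NPC 3w replicate C lay far below the others. The 3-week call of Arsb was lost when NPC 3w C or WT 3w C was left out (limma adjusted p from 0.0553 to 0.0908). At 9 weeks the groups overlapped, with 40338 to 54099 in NPC and 52444 to 75117 in WT (log2 change -0.43 ± 0.15 (SE), 0.740 times the WT level, 95% interval 0.599 to 0.913, limma adjusted p = 0.0388), and the call was lost when NPC 9w A, NPC 9w C, WT 9w C or WT 9w D was left out (limma adjusted p from 0.0720 to 0.195). The other genes of heparan sulfate breakdown, Ids, Sgsh and Hgsnat, did not pass in the genotype comparison at any age.

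Of 4 glycoprotein enzymes, 1, 2 and 2 were higher at 3, 6 and 9 weeks and 0 lower. Man2b1, the alpha-mannosidase, had 53927, 52982, 56036 and 46121 in WT and 109941, 106482 and 88934 in NPC at 9 weeks, a log2 change of 0.96 (limma adjusted p = 1.42e-06). At 6 weeks the values were 58146, 64087, 55847 and 63319 in WT and 102433, 112175, 106704 and 83916 in NPC, again without overlap (log2 change 0.74). At 3 weeks NPC replicate C, with 61042, fell below all 4 WT libraries while the other 3 NPC libraries, with 82886 to 97826, lay above them, and the gene did not pass. WT levels of Man2b1 were 64984 to 71315 at 3 weeks and 46121 to 56036 at 9 weeks, a log2 difference of -0.37 that did not pass. Manba, the beta-mannosidase, was higher by 0.42, 0.33 and 0.57 at the 3 ages, and its 6-week call was lost when NPC 6w A, NPC 6w B, NPC 6w C or WT 6w C was left out (limma adjusted p from 0.0672 to 0.149). Fuca1 and Aga, which remove fucose and cleave the sugar from asparagine, did not pass.

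Of 3 peptidases, Scpep1 and Tpp1 were higher at 3, 6 and 9 weeks, and Lgmn was lower at 6 weeks. Scpep1, a serine carboxypeptidase, had 1937, 2497, 2582 and 2444 in WT and 3369, 4629, 5317 and 4162 in NPC at 3 weeks (log2 change 0.87 ± 0.14 (SE), 1.83-fold, 95% interval 1.51 to 2.23, limma adjusted p = 3.86e-05). At 9 weeks it had 2442, 2540.3, 2311 and 1787 in WT and 4086, 3789 and 3347 in NPC, and at neither age did the groups overlap. Tpp1, the tripeptidyl peptidase lost in a childhood neuronal ceroid lipofuscinosis, was higher by 0.54, 0.47 and 0.41, and its 9-week call was lost when NPC 9w replicate B was left out (limma adjusted p = 0.104). Lgmn, the asparaginyl endopeptidase that activates cathepsins, had 113060.5 to 152954 counts in NPC and 145968 to 193288 in WT at 6 weeks (log2 change -0.36 ± 0.12 (SE), 0.782 times the WT level, 95% interval 0.661 to 0.925, limma adjusted p = 0.0402), with the groups overlapping. The call of Lgmn was lost when NPC 6w A, NPC 6w D, WT 6w A or WT 6w B was left out (limma adjusted p from 0.102 to 0.142).

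The enzymes of lipid esters, phosphates and nucleic acids held both the largest rise and the largest fall at 9 weeks among the 40 genes. Acp5, the tartrate-resistant acid phosphatase known from osteoclasts and activated macrophages, was the gene called at 1 week, with 92.7, 79.5, 104 and 210.3 in WT and 225, 317, 348 and 307 in NPC (log2 change 1.38 ± 0.32 (SE), 2.61-fold, 95% interval 1.65 to 4.12, limma adjusted p = 0.0216). With the replicate letter as a block it was called too. The call at 1 week was lost when NPC 1w B, NPC 1w C, NPC 1w D, WT 1w A, WT 1w B or WT 1w C was left out (limma adjusted p from 0.0589 to 0.0943). At 3 weeks Acp5 had 24.8, 19.6, 47.8 and 23 in WT and 175, 232, 244 and 239.9 in NPC (log2 change 2.98 ± 0.32 (SE), 7.89-fold, 95% interval 4.99 to 12.5, limma adjusted p = 1.25e-07). At 6 weeks it had 34.6, 21.2, 27.4 and 18.3 in WT and 183, 312, 325 and 164 in NPC (log2 change 3.20 ± 0.32 (SE), 9.19-fold, 95% interval 5.81 to 14.5, limma adjusted p = 3.34e-08). At 9 weeks it had 36.8, 24.1, 20.8 and 41 in WT and 446, 311 and 396 in NPC (log2 change 3.64 ± 0.35 (SE), 12.5-fold, 95% interval 7.61 to 20.5, limma adjusted p = 7.13e-09). No NPC library overlapped with a WT library at any age, and the genotype change from 3 weeks on was larger than that of any other member. Its WT level was the lowest per length of all 40 genes at 9 weeks, at 17.9 normalized counts per kilobase of exon. The sum of border-associated macrophage markers, given above, was also higher in NPC at 3, 6 and 9 weeks. At 6 weeks, however, 2 of the 7 tested markers were higher and 2 lower. Their part in the change of Acp5 was not tested.

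Pla2g15, the lysosomal phospholipase that acts on glycerophospholipids, was the member that was lower at 3, 6 and 9 weeks. It had 41398, 38441, 45684 and 40717 in WT and 18207, 21697 and 22758 in NPC at 9 weeks (log2 change -1.0 ± 0.12 (SE), 0.501 times the WT level, 95% interval 0.421 to 0.597, limma adjusted p = 6.38e-07). At 6 weeks the values were 53578, 52393, 39942 and 51242 in WT and 32356, 29696, 32273 and 27495 in NPC (log2 change -0.69 ± 0.11 (SE), 0.621 times the WT level, 95% interval 0.528 to 0.729, limma adjusted p = 6.00e-05), and at both ages the groups did not overlap. At 3 weeks NPC replicate C, with 35256, reached into the WT range of 33005 to 41248 (log2 change -0.35 ± 0.11 (SE), 0.787 times the WT level, 95% interval 0.669 to 0.924, limma adjusted p = 0.0261). The 3-week call of Pla2g15 was lost when NPC 3w A, NPC 3w D, WT 3w A or WT 3w D was left out (limma adjusted p from 0.0564 to 0.0766).

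Dnase2a, which digests DNA in the lysosome, had 2833, 3865, 4052 and 3911 in WT and 6623, 5933, 7203 and 5538 in NPC at 3 weeks (log2 change 0.79 ± 0.14 (SE), 1.73-fold, 95% interval 1.42 to 2.12, limma adjusted p = 1.92e-04). At 6 weeks the values were 3181, 3707, 3952 and 2773 in WT and 5176, 6158, 6524 and 5706 in NPC (log2 change 0.80 ± 0.14 (SE), 1.74-fold, 95% interval 1.42 to 2.13, limma adjusted p = 1.55e-04), and at 9 weeks 4535, 4402, 3544 and 3236 in WT and 6589, 6622 and 5579.9 in NPC. The genotypes did not overlap at these ages. Plbd2, a phospholipase B-like protein, was higher by 0.60, 0.58 and 0.72, and its 6-week call was lost when NPC 6w B, NPC 6w C or WT 6w C was left out (limma adjusted p from 0.0547 to 0.0899). Ppt1, the thioesterase that removes palmitate from proteins, was higher by 0.72 at 3 weeks, and the acid phosphatase Acp2 passed at no age.

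Of 7 membrane proteins, 4, 2 and 3 were higher at 3, 6 and 9 weeks, and 0, 0 and 1 lower. Cd68 had 32168, 29169.5, 30830.2 and 26335 in WT and 61344, 57943 and 54202 in NPC at 9 weeks (log2 change 0.97 ± 0.16 (SE), 1.96-fold, 95% interval 1.56 to 2.45, limma adjusted p = 4.54e-05). At 6 weeks NPC values were 48158, 71639, 69284 and 44604 against 38021, 40183, 28813 and 33830.3 in WT, and at 3 weeks 41861, 53909, 65257 and 44685 against 27378, 31207, 28806 and 34461. All NPC libraries exceeded all WT libraries at these ages, with NPC 3w replicate C and NPC 6w replicates B and C highest, the same 3 libraries as for Gla. Slc17a5, which exports sialic acid, was higher by 0.41 at 3 weeks and 0.58 at 9 weeks. The 3-week call of Slc17a5 was lost when NPC 3w B, NPC 3w C, WT 3w A or WT 3w B was left out (limma adjusted p from 0.0631 to 0.104). Its 9-week call was lost when NPC 9w replicate B was left out (limma adjusted p = 0.0639). Mcoln1, the calcium channel TRPML1, was higher by 0.34 and 0.45 at 6 and 9 weeks. The 6-week call of Mcoln1 was lost when NPC 6w A, NPC 6w B, NPC 6w D, WT 6w A, WT 6w B or WT 6w D was left out (limma adjusted p from 0.0806 to 0.144). Its 9-week call was lost when NPC 9w A or WT 9w C was left out (limma adjusted p from 0.0558 to 0.101). Cln3, mutated in juvenile neuronal ceroid lipofuscinosis, and Ctns, the cystine exporter, were higher at 3 weeks by 0.34 and 0.39. Cln3 was lost when NPC 3w C or WT 3w A was left out (limma adjusted p from 0.0721 to 0.0855). Ctns was lost when NPC 3w C or WT 3w D was left out (limma adjusted p from 0.0609 to 0.146).

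Laptm5, a membrane protein of lysosomes in blood and immune cells, was lower at 9 weeks, with 150997 to 154872 in NPC and 188550.1 to 209196 in WT (log2 change -0.40 ± 0.11 (SE), 0.756 times the WT level, 95% interval 0.647 to 0.883, limma adjusted p = 0.00881). The groups did not overlap, and with the replicate letter as a block its limma adjusted p was 0.0551 and after quantile normalization 0.0583. Mfsd8 passed at no age. Laptm5 was lower and Cd68 higher in the same libraries, and the summed microglia markers given above were lower too.

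Grn encodes progranulin, a secreted protein that is processed in lysosomes and whose loss causes lysosomal storage. It had 124870.2, 138604, 154999.6 and 142135 in WT and 196616, 238441, 295115 and 258001 in NPC at 3 weeks (log2 change 0.81 ± 0.12 (SE), 1.75-fold, 95% interval 1.47 to 2.08, limma adjusted p = 1.92e-05). At 6 weeks it had 130338, 157138, 118640.3 and 133804 in WT and 230152, 287714, 273443 and 194279 in NPC (log2 change 0.86 ± 0.12 (SE), 1.81-fold, 95% interval 1.53 to 2.15, limma adjusted p = 6.40e-06), and at 9 weeks 126039.5, 109231, 116469 and 115354 in WT and 240689.6, 230051 and 227706 in NPC (log2 change 1.0 ± 0.13 (SE), 2.00-fold, 95% interval 1.66 to 2.40, limma adjusted p = 1.71e-06). No libraries of the genotypes overlapped at these ages. At 1 week they did not overlap either, with 147314, 161324, 164260.3 and 180279 in WT and 225312, 211509, 186557 and 210494 in NPC, but the log2 change of 0.35 (95% interval 0.10 to 0.60) did not pass (limma adjusted p = 0.181). At 1 week 28 of 40 members had a positive change, of which Acp5 passed, and the median change of all tested genes was 0.00. An unadjusted p under 0.05 in limma was found for 11 of 40 members and 1642 of 14046 tested genes. Given how the list was drawn up, these counts only describe it. The largest changes that did not pass, beside that of Grn, were those of Slc17a5 with 0.42 (95% interval 0.14 to 0.70), Tpp1 with 0.33 (95% interval 0.11 to 0.54) and Gla with 0.33 (95% interval -0.28 to 0.93).

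**Figure D2:**
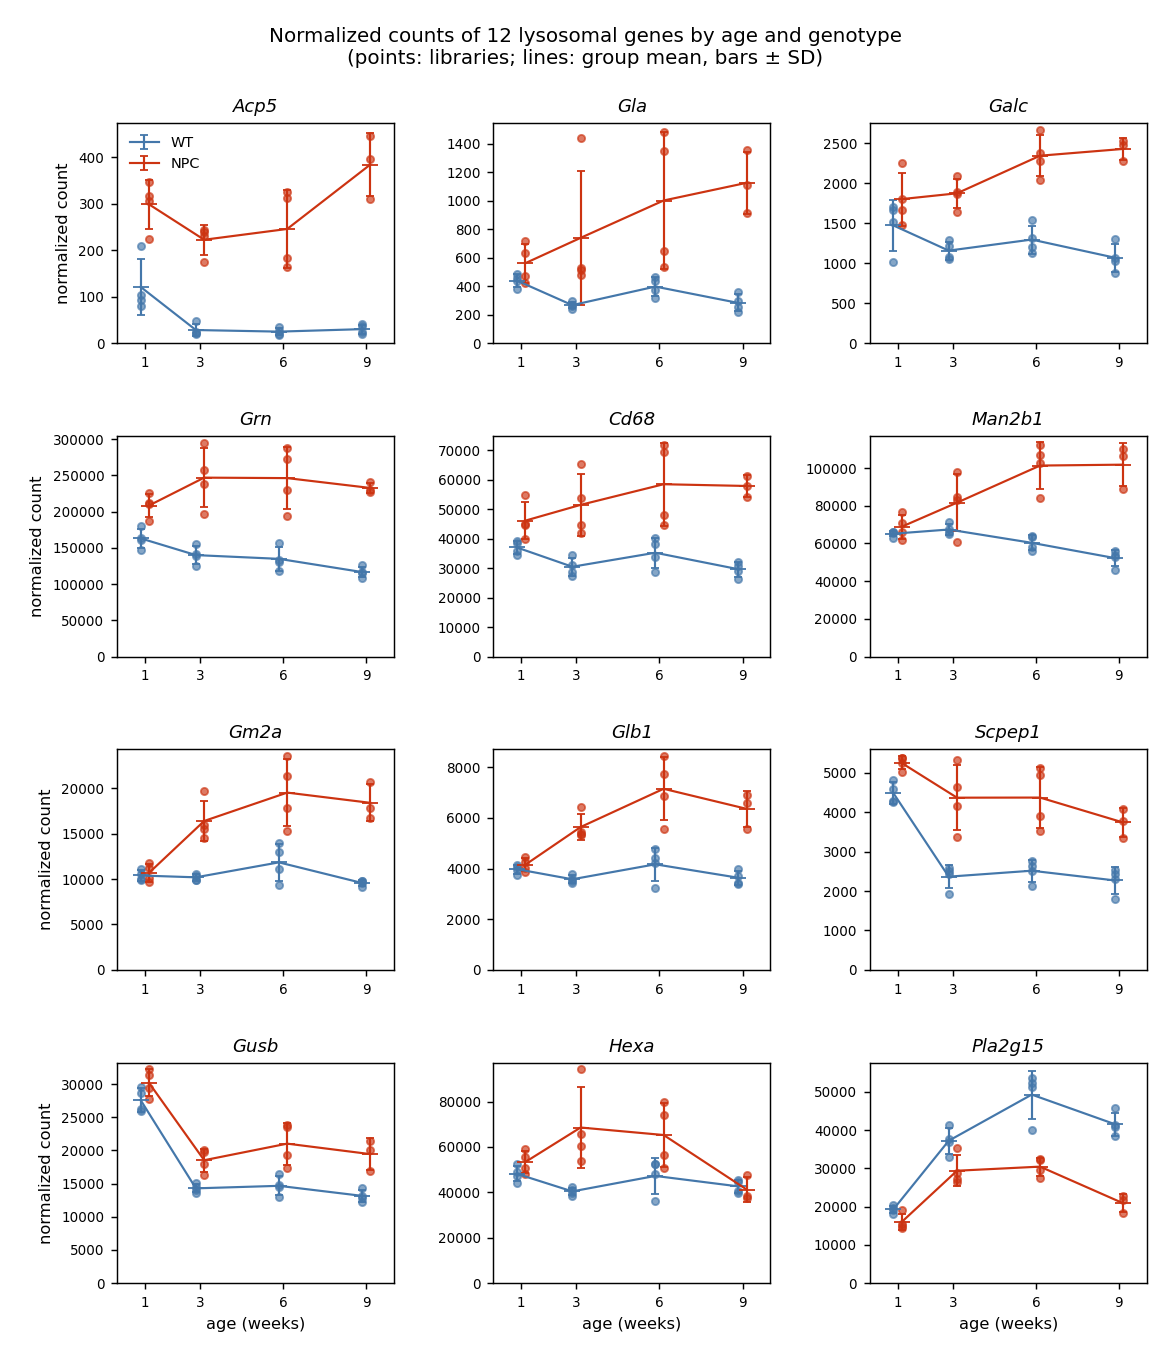
Normalized counts (y axis, linear from 0) of 12 genes against age in weeks (x axis) in WT (blue) and NPC (red) microglia; points are libraries, lines join group means and bars are ± SD (n = 4, and 3 for NPC at 9 weeks). For Acp5 the WT points stay at or under 47.8 from 3 weeks on while the NPC points stay at or above 164, and for Pla2g15 the order of the genotypes is opposite to that of the other genes that passed at 9 weeks.

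**Figure D3:**
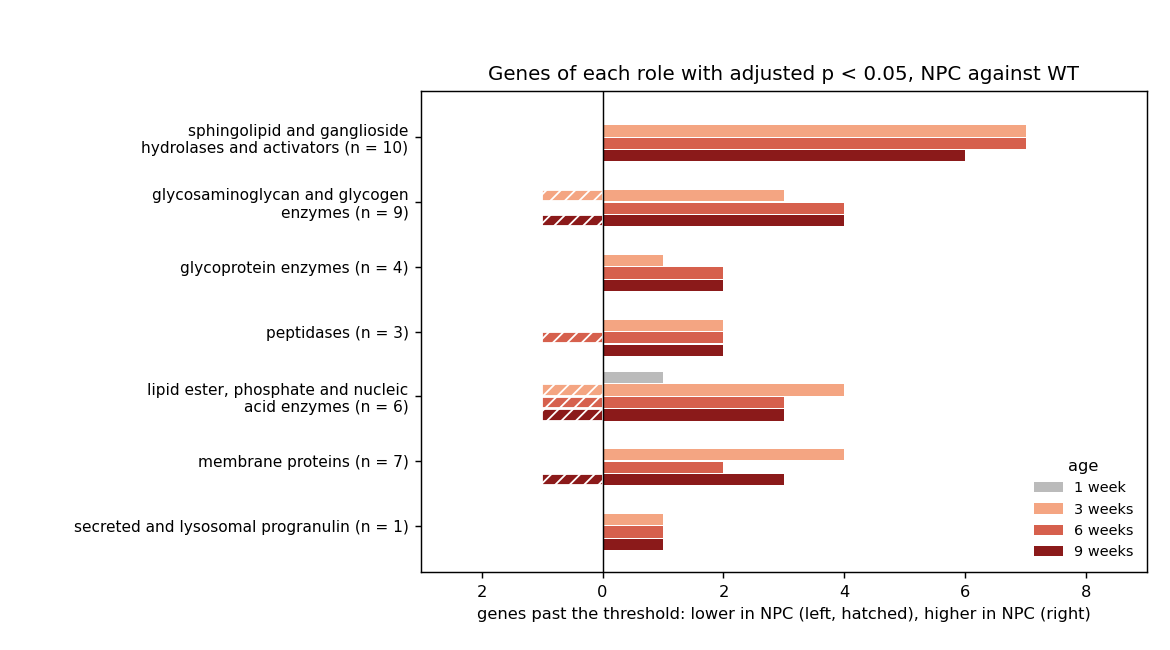
Number of genes of each role past the threshold in NPC against WT, with bars to the right for higher and hatched bars to the left for lower in NPC, by age (shades); n is the number of genes in the role. The sphingolipid group has 7, 7 and 6 of 10 genes to the right at 3, 6 and 9 weeks, and the only bar at 1 week is Acp5.

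Whether the genotype change itself differed between ages was tested as an interaction. Between 1 and 3 weeks 0 of the 40 genes passed in either direction, where 0.861% and 0.199% of all tested genes passed as higher and lower. In limma 14 of 40 members had an unadjusted p under 0.05, as did 2525 of 14046 tested genes. DESeq2 on recovered reads called 5 members and 479 of 14046 tested genes, and edgeR 0 members and 181 genes, where limma called 149 genes. The median difference of the members was 0.27, and that of all genes -0.03. Acp5 had the largest difference, 1.60 (95% interval 0.66 to 2.54) on the log2 scale (limma adjusted p = 0.0874), and Gla had 0.97 (95% interval 0.11 to 1.82). For Acp5, leaving out NPC 3w replicate A or WT 3w replicate C brought limma's adjusted p to 0.0471 or 0.0415. Without NPC 3w replicate A 3 members passed, and 420 rather than 149 of all tested genes.

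Between 3 and 9 weeks 0 of 40 passed by limma, against 0.263% and 0.192% of all genes. An unadjusted p under 0.05 in limma was found for 8 of 40 members and 1586 of 14046 tested genes. DESeq2 called 3 members (1 higher and 2 lower) and 245 of 14046 tested genes, and edgeR 0 members and 80 genes, where limma called 64 genes. For Man2b1 the genotype change at 9 weeks minus that at 3 weeks was 0.70 (95% interval 0.35 to 1.05), with limma adjusted p = 0.0517. For Hexa it was -0.78 (95% interval -1.23 to -0.34), with limma adjusted p = 0.113. For Pla2g15 it was -0.65 (95% interval -0.99 to -0.31), with limma adjusted p = 0.0685. These 3 genes were those that DESeq2 called, with DESeq2 adjusted p of 0.00804, 0.0311 and 0.0143. Without NPC 3w replicate B the limma adjusted p of Man2b1 was 0.0250, and without NPC 3w replicate A those of Hexa and Pla2g15 were 0.0485 and 0.0498. NPC 3w replicate C had the highest Hexa and the lowest Man2b1 of the NPC libraries at 3 weeks. Gla had 0.70 (95% interval -0.19 to 1.58), an interval that spans no difference as well as a large one.

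In WT mice some members also changed with age between 1 and 3 weeks, when microglia mature. Of 40 genes 5 were higher and 6 lower at 3 weeks, where 15.7% and 18.4% of all tested genes were higher and lower. In neither direction did the share of members exceed that of all tested genes in the main scaling. Sgsh, the sulfamidase of heparan sulfate, rose most (log2 change 1.08 ± 0.13 (SE), 2.11-fold, 95% interval 1.75 to 2.53, limma adjusted p = 1.71e-07). Pla2g15 rose next (log2 change 0.95 ± 0.11 (SE), 1.93-fold, 95% interval 1.64 to 2.27, limma adjusted p = 1.68e-07). Smpd1 rose too (log2 change 0.67 ± 0.17 (SE), 1.60-fold, 95% interval 1.26 to 2.02, limma adjusted p = 0.00206), as did Ids, the iduronate sulfatase (log2 change 0.49 ± 0.18 (SE), 1.40-fold, 95% interval 1.08 to 1.82, limma adjusted p = 0.0383). The fifth was Arsa (log2 change 0.43 ± 0.11 (SE), 1.35-fold, 95% interval 1.15 to 1.57, limma adjusted p = 0.00331). Acp5 fell most (log2 change -2.02 ± 0.32 (SE), 0.247 times the 1-week level, 95% interval 0.156 to 0.391, limma adjusted p = 1.65e-05). Gusb followed (log2 change -0.95 ± 0.11 (SE), 0.518 times the 1-week level, 95% interval 0.446 to 0.601, limma adjusted p = 4.45e-08), and then Scpep1 (log2 change -0.93 ± 0.14 (SE), 0.525 times the 1-week level, 95% interval 0.431 to 0.638, limma adjusted p = 5.46e-06). Galns fell (log2 change -0.51 ± 0.14 (SE), 0.704 times the 1-week level, 95% interval 0.580 to 0.855, limma adjusted p = 0.00479), as did Dnase2a (log2 change -0.40 ± 0.14 (SE), 0.759 times the 1-week level, 95% interval 0.620 to 0.928, limma adjusted p = 0.0297) and, by -0.28 in log2 change, Cln3. The call of Ids was lost when WT 1w A, WT 1w B, WT 1w D, WT 3w A, WT 3w B or WT 3w C was left out (limma adjusted p from 0.0773 to 0.114). That of Dnase2a was lost when WT 1w B, WT 1w D or WT 3w A was left out (limma adjusted p from 0.0670 to 0.155). That of Cln3 was lost when WT 1w B, WT 1w C, WT 1w D, WT 3w A or WT 3w B was left out (limma adjusted p from 0.0572 to 0.128). Scpep1 had 4589, 4250.3, 4278 and 4828 in WT at 1 week and 1937, 2497, 2582 and 2444 at 3 weeks, and in NPC mice 5378, 5365, 5021 and 5237 and 3369, 4629, 5317 and 4162. Over the same 2 weeks the summed border-associated macrophage markers of WT libraries were 4410 to 9130 at 1 week and 358 to 688 at 3 weeks, with 6 of 7 tested lower. Of 8 microglia markers 6 were higher, and of 10 myelin markers 5 were lower. Their part in these changes was not tested. Rescaling to the same total gave 4 higher and 16 lower members (20.0% higher rather than 45.5%), and quantile normalization gave 5 and 12 (29.4%). Between 3 and 9 weeks in WT 0 of 40 passed, against 0.228% and 0.249% of all genes, and 0 were called by edgeR or DESeq2. In limma 3 of 40 members had an unadjusted p under 0.05, as did 1026 of 14046 tested genes, a like share. Without NPC 3w replicate C, which enters the shared spread, 2 were lower.

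The genes that fell during WT maturation were set beside the genotype comparison at 9 weeks, which shares no library with it. Of the 6 genes that fell, 5 were higher in NPC at 9 weeks (83.3% of the 6 and 23.8% of the 21 genes higher at 9 weeks): Acp5, Dnase2a, Galns, Gusb and Scpep1. Of the 5 genes that rose, 0 were higher in NPC at 9 weeks, Pla2g15 was lower, and Arsa, Ids, Sgsh and Smpd1 did not pass. Of the 29 genes that did not pass in maturation 16 were higher in NPC at 9 weeks (55.2%). No test was made of these shares, and the same shares over all tested genes were not worked out. They therefore describe these members only. The genotype comparison at 3 weeks shares the WT 3-week libraries with the maturation comparison, so its overlap is not given.

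Levels can be compared between genes only per length, and here normalized counts were divided by the merged exon length of each gene in GENCODE M21. In WT microglia at 9 weeks, Laptm5 was the most abundant member (77840.0 per kilobase of exon), followed by Lgmn (66640.0), Grn (49900.0), Psap (43100.0) and Cd68 (23570.0). In NPC microglia at 9 weeks Grn came first (99490.0), followed by Psap (70800.0), Laptm5 (58770.0), Lgmn (57200.0) and Cd68 (46010.0). Pla2g15 went from rank 7 to rank 12 and Man2b1 from rank 9 to rank 6. Acp5, Gla and Mfsd8 had the 3 lowest levels in both genotypes, although Gla and Acp5 had the largest changes. These are group means, and neighbouring ranks were not tested against each other.

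In NPC mice at 9 weeks, PLX5622 was compared with its control group, 5 libraries each. Of 40 genes 1 was higher and 0 lower, against 0.637% and 0.311% of all tested genes. In limma 6 of 40 members had an unadjusted p under 0.05, as did 1931 of 12877 tested genes, a like share. The gene was Gusb, with 29522, 33722, 25039, 25827 and 26476 in PLX5622 replicates 1 to 5 and 21954, 21017, 19218, 19480.5 and 19396 in control replicates 1 to 5 (log2 change 0.47 ± 0.10 (SE), 1.39-fold, 95% interval 1.19 to 1.61, limma adjusted p = 0.0494). Each PLX5622 library lay above each control library, and the values are given because the gene was the one that passed. In the edgeR test the count was 0 (edgeR adjusted p = 0.0557), and limma's call was lost when any 1 library was left out other than PLX5622 replicate 5 and control replicate 1 (limma adjusted p from 0.0637 to 0.149). Gusb had 14368, 13176, 12760.1 and 12288 in WT mice of the same age. The monocyte and neutrophil marker sum was 668 to 98300 in PLX5622 and 325 to 5170 in control libraries, with PLX5622 replicate 3 highest and Ngp the leading gene. Border-associated macrophage markers summed to 1230 to 2830 in PLX5622 and 890 to 1160 in control libraries, with 1 of 4 tested higher and 0 lower. Lymphocyte markers summed to 44.8 to 250 and 4.69 to 29.2, and endothelial markers to 333 to 509 and 482 to 1090. The first 2 of these 3 sums did not overlap between the arms, and the part of these cell types in the result for Gusb was not tested. PLX5622 replicate 3 had the lowest Gusb of its group. Without it the log2 change of Gusb was 0.51 (limma adjusted p = 0.0637).

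No other member passed, and the intervals were wide. Acp5 had 956, 323, 369, 325 and 396 in PLX5622 and 629, 289, 312, 276 and 316 in control libraries, a log2 change of 0.31 (95% interval -0.36 to 0.99). PLX5622 replicate 1 and control replicate 1 stood above their groups, and all 10 libraries lay above the WT range of 20.8 to 41. Gla had 1839, 1126, 1148, 1458 and 1117 in PLX5622 and 1538, 1569.6, 1206, 1238 and 1176 in control libraries, with overlapping groups. Galc had 5046, 2434, 3118, 3275 and 2956 in PLX5622 and 5769, 3090.4, 2804, 3236 and 3107 in control libraries, and again replicate 1 was the highest of each group. Grn had 366640.3, 311377, 254365, 206354 and 256399 in PLX5622 and 242299, 285475, 243420.3, 242355 and 228417 in control libraries, a log2 change of 0.14 (95% interval -0.16 to 0.45). Pla2g15, with 13375, 14294, 20126, 19130.2 and 21443 in PLX5622 and 20391, 23393, 22989, 21992 and 22382 in control libraries, had -0.35 (95% interval -0.64 to -0.07) and did not pass (limma adjusted p = 0.238). The largest negative value was that of Slc17a5, -0.43 (95% interval -0.80 to -0.06) with limma adjusted p = 0.265, and Hgsnat had the largest positive value after Gusb, 0.46 (95% interval -0.08 to 0.99). A missed threshold does not show that the groups were alike, and intervals as wide as that of Acp5 include a rise of nearly 1 log2 unit.

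**Figure D4:**
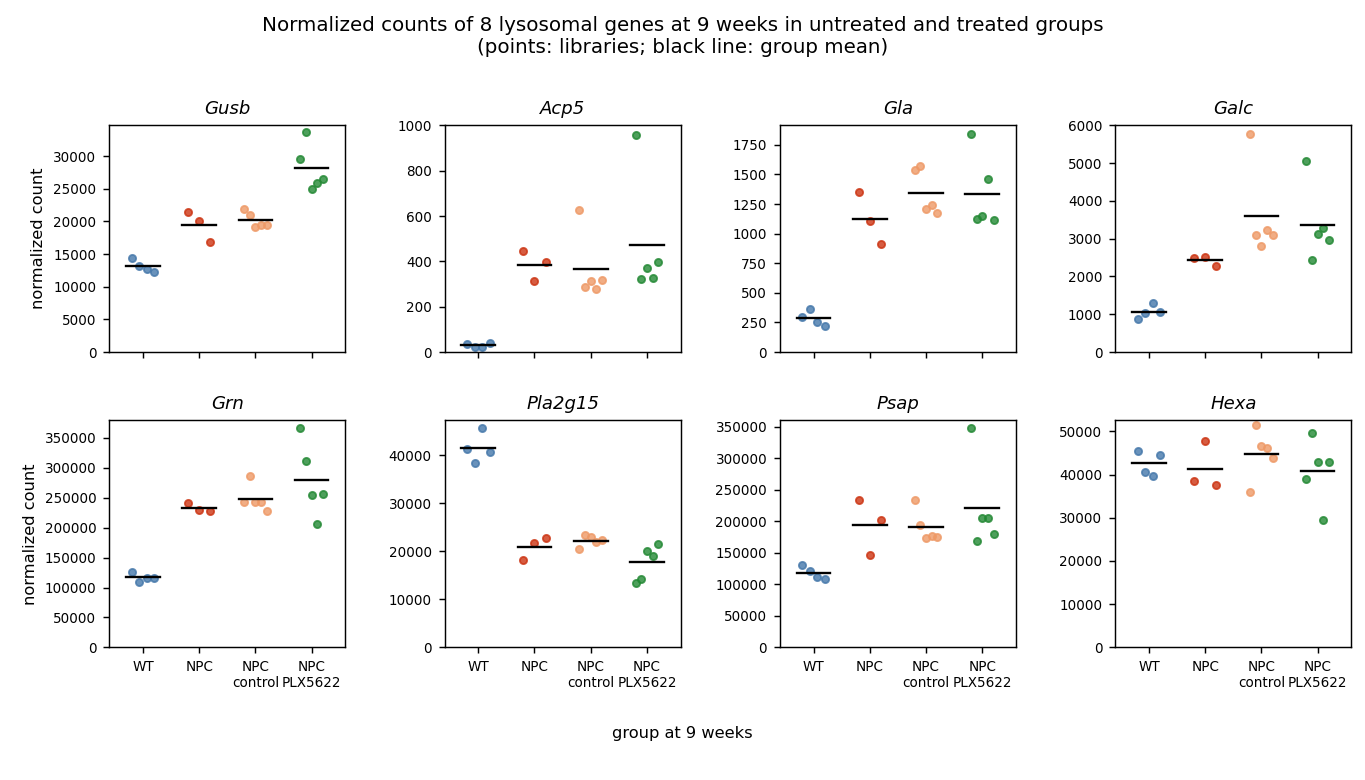
Normalized counts (y axis, linear from 0) of 8 genes at 9 weeks in WT, untreated NPC, NPC control and NPC PLX5622 microglia; points are libraries and black lines group means. The 5 PLX5622 points of Gusb lie above the 5 control points, whereas the points of the other 7 genes overlap between these groups.

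The control arm was compared with the untreated NPC mice of the same age to see how far the arms can be set side by side. None of 40 members passed in limma, where 0% of all tested genes were higher and 0% lower, and 0 passed in edgeR or DESeq2. Of the 40 members, 1 had an unadjusted p under 0.05 in limma, against 598 of 14312 tested genes. The median log2 change was 0.03, against -0.03 for all genes. The largest change was that of Galc, 0.52 (95% interval 0.12 to 0.91), where control replicate 1 had 5769 against 2275 to 2524 in untreated NPC mice. The labels do not say whether the arms were processed together, so an arm and its processing cannot be told apart.

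Other lysosomal genes outside the 40 were listed by role and set beside the members. Of all tested genes 0.876%, 14.3%, 8.76% and 11.2% were higher at 1, 3, 6 and 9 weeks. The shares of lower genes were 0.577%, 12.6%, 6.5% and 7.77%. Of 16 other hydrolases and luminal proteins 1, 9, 8 and 7 were higher at 1, 3, 6 and 9 weeks and 0 lower. Npc2, the soluble partner of Npc1, was higher by 1.07 at 9 weeks, Arsg, a heparan sulfatase, by 1.22, and the dipeptidyl peptidase Dpp7 by 0.75 (limma adjusted p = 2.80e-05, 1.13e-04 and 1.13e-04). Of 19 tested membrane proteins 1, 8, 5 and 6 were higher and 0, 2, 2 and 2 lower. Cd63, a tetraspanin of late endosomes, was higher by 2.21, the abundant lysosomal membrane glycoprotein Lamp1 by 1.05 and the transporter Mfsd1 by 1.13 (limma adjusted p = 7.01e-07, 1.28e-06 and 1.19e-05). The 2 lower genes at 9 weeks, named after their values were seen, were the amino acid sensor Slc38a9 (-0.62) and the nucleoside transporter Slc29a3 (-0.55). Of 11 genes that sort and activate lysosomal enzymes 1, 3, 2 and 3 were higher and 0, 2, 0 and 0 lower. The adaptor Gga2 was at 1.18, Gnptg at 0.78 and Gnptab at 0.91 at 9 weeks (limma adjusted p = 3.08e-07, 7.66e-04 and 0.0438). Gnptg and Gnptab are subunits of the transferase that makes the mannose-phosphate tag. The median log2 change at 9 weeks was 0.42 for the luminal list, 0.06 for the membrane list and -0.01 for the sorting list, against 0.03 for all tested genes and 0.38 for the 40 members. These lists too were drawn up with earlier results of these data known, and Scarb2 is in both the membrane and the sorting list.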

How the data were processed

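RNA of sorted cerebellar microglia was sequenced in 41 libraries after amplification with SMART-seq v4, per the labels' protocols. The authors deposited 1 table of normalized counts, which are a signal scaled by 1 size factor for each library. The submitters' processing notes name FastQC 0.11.4, STAR 2.5.1b, DESeq2 and build mm9; the annotation and counting tool are not given in the sources used here. All values (100.0%) were whole multiples of what 1 read is worth, within 1e-06, so read counts were recovered for the alternatives. A total of 5501 genes were at 0 in all libraries.

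Values were tested as log2(normalized count + 1) with limma 3.58.1 in R 4.3.3 (trend and robust variance, two-sided, Benjamini-Hochberg adjustment over all genes tested), on genes that reached 10 normalized counts in 3 or more libraries. Fold changes are on that scale and understate the change of low genes. The 31 untreated libraries shared 1 fit (14046 genes), the PLX5622 and control libraries another (12877), and all 41 together one more (14312). Groups came from the labels, and no library was left out. The scripts were tested on simulated data. Alternatives were a pseudocount of 10, rescaling to 1 common total, quantile normalization, no filter, a fit of the groups compared, the replicate block, the recovered reads in edgeR 4.0.16 or DESeq2 1.42.0, each library left out, and both NPC 6w replicates B and C left out.

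The members and gene lists were chosen with earlier results of these data known. All 40 members could be named, with full statistics for up to 5 higher and 5 lower called members with the largest log2 change per comparison, values per library for 12, and from each other lysosomal list the 3 genes with the smallest adjusted p at 9 weeks. Replicate letters of WT and NPC deviated together at 1 week (r from 0.111 to 0.163), which paired the libraries there by the data, and not at the other ages.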

Additional observations from a re-analysis of the deposited data

Results flagged for a closer look

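Among 108 sets of values, 12 genes in each group of 4 or 5 libraries, 7 had 1 library that stood apart from the rest of its group by Dixon's test, and chance gives about 1 in 20. At 9 weeks, Acp5 had 628.9 normalized counts in NPC control replicate 1 and 956.3 in PLX5622 replicate 1, each the highest of its 5 libraries. Galc was highest in the same control library, with 5769 counts. Grn was highest in control replicate 2, with 285500.0. At 3 weeks, Gla was highest in NPC replicate C, with 1443, and Glb1 in NPC replicate B, with 6421. Dnase2a was lowest in WT replicate A at 3 weeks, with 2833 counts.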

How the results depend on the processing

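Of the called members, 11 of 24 at 3 weeks, 10 of 23 at 6 weeks, 18 of 24 at 9 weeks and 8 of 11 in WT maturation were called under all alternatives run, and 0 of 1 at 1 week and 0 of 1 with PLX5622. No reported value reversed. The cause was not tested for the changes listed here, beyond the fewer libraries in some fits. At 1 week, quantile normalization called 3 members (2 higher, 1 lower). At 3 weeks, the fit of its own libraries called 11 (11 higher, 0 lower), the replicate block 1 lower, and rescaling 4 lower with a median of 0.26. At 6 weeks, leaving out both NPC replicates B and C called 11 (9 higher), while 1 was lower in the fit of its own libraries, 1 with the replicate block and 4 after rescaling. At 9 weeks 5, 1 and 6 were lower under the same settings. For the change between 1 and 3 weeks, DESeq2 called 5 (all higher), quantile normalization 1 and the fit without both NPC 6w replicates 1. For that between 3 and 9 weeks, DESeq2 and rescaling each called 3 (1 higher, 2 lower), quantile normalization 2 (1 and 1, median 0.13), a pseudocount of 10 called 1 and the fit without both NPC 6w replicates 1. In WT maturation, quantile normalization called 17 (12 lower), rescaling 20 (16 lower, median -0.22), and the fit of the groups compared 10 lower. In WT from 3 to 9 weeks that fit called 1, lower. With PLX5622, edgeR, no filter, quantile normalization and rescaling called 0.

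Leaving out 1 library at a time gave these ranges of members called, higher and lower. They were 0 to 1, 0 to 1 and 0 to 0 at 1 week, 20 to 24, 19 to 23 and 1 to 2 at 3 weeks, 19 to 25, 17 to 22 and 1 to 3 at 6 weeks, and 21 to 25, 18 to 21 and 2 to 4 at 9 weeks. They were 0 to 3, 0 to 3 and 0 to 0 for the change from 1 to 3 weeks, and 0 to 2, 0 to 1 and 0 to 2 for that from 3 to 9 weeks. They were 8 to 14, 4 to 7 and 4 to 7 in WT maturation, 0 to 2, 0 to 0 and 0 to 2 in WT from 3 to 9 weeks, 0 to 1, 0 to 1 and 0 to 0 with PLX5622, and 0 to 0 for the control arm. With the replicate block 1, 22, 19 and 19 members were called at 1, 3, 6 and 9 weeks, 0 and 0 for the changes between ages, 11 and 0 in the WT comparisons and 1 with PLX5622.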
